A study of Mus musculus with 16 samples.

Results

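The Hox clusters A to D were taken as 4 spans of mouse build mm9: HoxA at chr6:52100000-52225000 (125 kb), HoxB at chr11:96050000-96235000 (185 kb), HoxC at chr15:102745000-102875000 (130 kb) and HoxD at chr2:74495000-74610000 (115 kb). A feature belonged to a cluster when it overlapped the span by at least 1 bp. The spans held 285 of the 832005 features listed for the whole series: 85 of 163386 CTCF ChIP peaks, 46 of 599274 CLIP peaks and 154 of 69345 nuclear RNA rows. By cluster there were 59 features in HoxA, 96 in HoxB, 72 in HoxC and 58 in HoxD.

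Hox genes encode homeodomain transcription factors that set position along the body axis. In mammals they lie in 4 paralogous clusters, the genes of each cluster are transcribed in one direction, and they are switched on in an order that follows their place in the cluster. In embryonic stem (ES) cells the clusters are known as repressed chromatin under Polycomb proteins. The zinc-finger protein CTCF marks insulators and the edges of chromatin domains, and it is known to bind at several places between Hox genes.

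The libraries came from female hybrid mouse ES cells. Day 0 cells were undifferentiated and grown attached to the dish with LIF, the cytokine that keeps ES cells undifferentiated. Day 3 cells had differentiated for 3 days without LIF and without attachment. CLIP recovers RNA that UV light has crosslinked to a protein, and here the RNA was pulled down from nuclei with anti-FLAG beads; UV-treated cells gave 2 libraries per day. The tagged protein is CTCF by the design text, and the labels name no tagged line. ChIP with a CTCF antibody gave 2 libraries at day 0 and 1 at day 3, and strand-specific sequencing of nuclear RNA without ribosomal RNA gave 1 library per day. CLIP and RNA samples are labelled CAST/Ei x 129/Sv/Jae and ChIP samples 129S1/CastEiJ x 129S1, so the assays were not shown to share a cell line. The labels do not say that replicates were separate cultures. Of the 16 samples 9 were used; those without UV and the ChIP inputs were left out, and no background from them can be given.

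The lists were unequal in size, and their read depth is unknown. Day 0 ChIP replicates listed 45377 and 76745 peaks, and day 3 listed 41264. The CLIP lists ran from 106382 peaks (day 3, replicate 1) to 213181 (day 0, replicate 2). There were 40668 RNA rows for day 0 and 28677 for day 3. Rows carry assembly identifiers and no gene names, so ES cell and lineage marker genes were not looked up, and Hox RNAs are given by cluster, strand and mm9 position. RefSeq lists 39 Hox genes in the 4 clusters: 11 in HoxA, 10 in HoxB, 9 in HoxC and 9 in HoxD. From the low-coordinate end, HoxB runs from Hoxb13 to Hoxb1, HoxC from Hoxc13 to Hoxc4 and HoxD from Hoxd13 to Hoxd1. The Hox genes run on the minus strand in HoxA and on the plus strand in the other clusters; that strand is called sense below and the other antisense.

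The letters AGGNGGC, from the core of the CTCF binding motif, were searched on both strands in the RefSeq promoters of build GRCm38.p6, from 250 bases before to 50 bases after each start. They were found in 7 of 24 Hox promoters, which belong to 22 genes, and in 29.4% of all 32851 promoters, so the Hox share (29.2%) was at the background. Of these, 4 promoters with a single match before the start are shown, as the letters around which CTCF could be looked for at Hox starts; the capitals mark the match, and each line runs along the gene's own strand. The stretches are chr6:52240926-52240962 (Hoxa10, minus strand), chr6:52245969-52246005 (Hoxa11, minus), chr11:96318103-96318139 (Hoxb4, plus) and chr2:74691816-74691852 (Hoxd10, plus) of GRCm38.p6.
Hoxa10: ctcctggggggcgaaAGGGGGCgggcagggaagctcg
Hoxa11: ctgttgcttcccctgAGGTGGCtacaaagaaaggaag
Hoxb4: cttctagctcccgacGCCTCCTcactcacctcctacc
Hoxd10: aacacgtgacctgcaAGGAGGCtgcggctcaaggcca
The matches begin 93 bases before the start in Hoxa10, 180 in Hoxa11, 149 in Hoxb4 and 60 in Hoxd10. In Hoxb4 the motif is on the strand opposite to the gene. All 4 genes encode homeodomain factors, of which Hoxa10, Hoxa11 and Hoxd10 belong to the groups known for limb and caudal patterning. A match describes letters in a window; it was not placed on the mm9 peaks, whose own sequence was not read here.

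**Figure D1:**
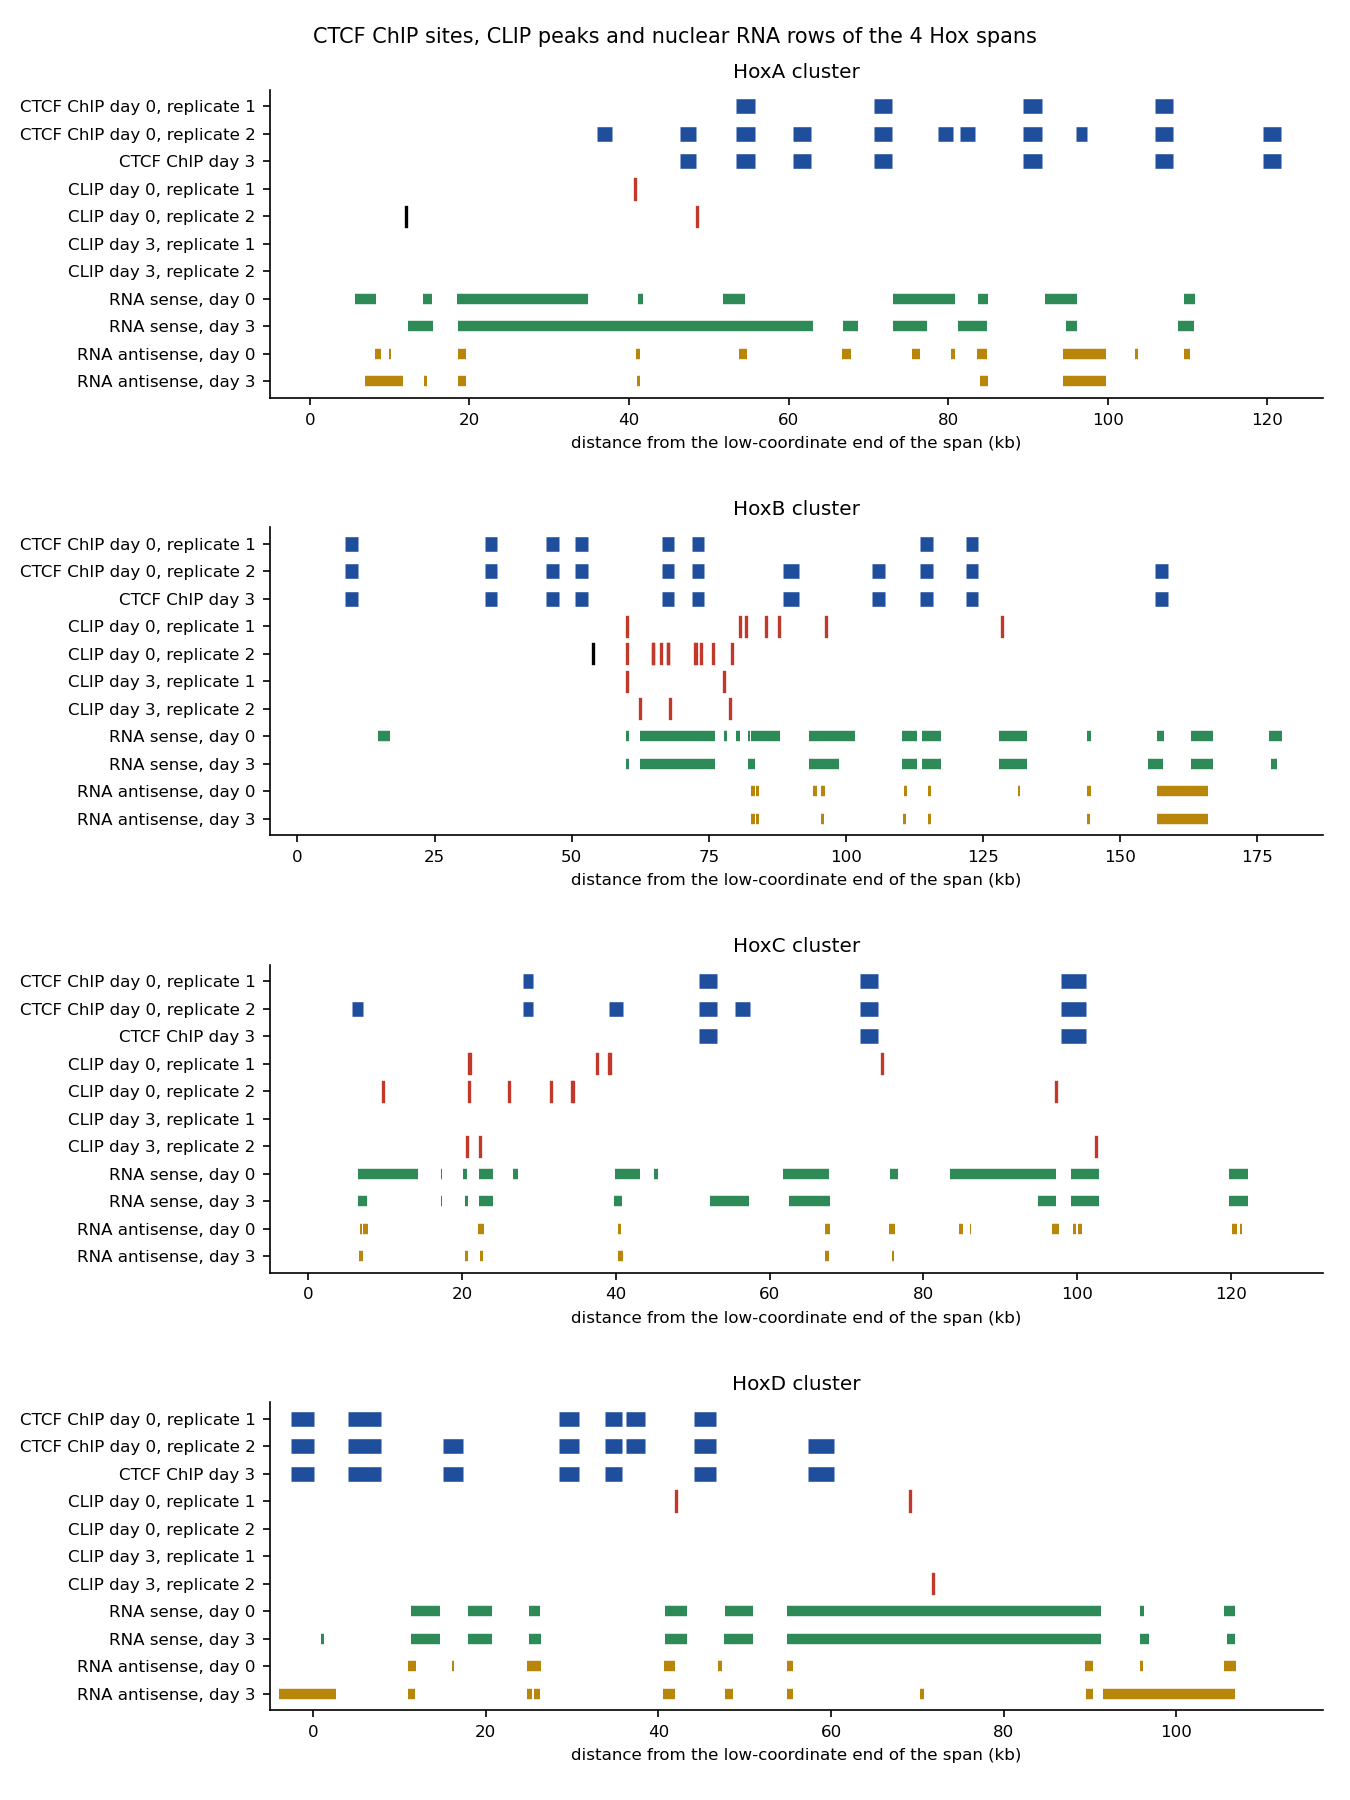
Each panel is 1 Hox span, with distance in kb from its low-coordinate end along the bottom and 1 line per library or strand. Blue bars are CTCF sites found in that ChIP library, drawn at the limits merged over libraries; ticks are CLIP peaks (red sense, black antisense); green and ochre bars are sense and antisense RNA rows. HoxB holds 11 CTCF sites, each found at day 3, and its CLIP ticks gather in the middle of the span.

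CTCF occupied 37 separate sites in the 4 spans, and 20 of them were present in all 3 ChIP libraries. Peaks of the 3 lists were merged into a site where they overlapped by at least 1 bp. A further 10 sites were in 2 libraries and 7 in 1 library. The sites stood at 6.67 per 100 kb of span against 3.63 per 100 kb over the genome, and those in all 3 libraries at 3.60 against 1.07. Gene density was not matched in that comparison. Of the Hox sites 54.1% were in all 3 libraries, against 29.4% of the 93527 sites of the genome.

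No Hox site appeared at day 3 alone, where 4919 of the 93527 sites of the genome did. All 27 Hox peaks of day 3 were overlapped by a peak of day 0 replicate 2 (100%, exact Clopper-Pearson 95% interval 87.2 to 100), where the background over the whole day 3 list was 86.7%. By day 0 replicate 1 the count was 19 of 27 (70.4%, 49.8 to 86.2), against 68.9%. These intervals, like those below, cover counting error only and take peaks as independent. Hox peaks also had high scores. It is the authors' own value and serves here to rank peaks within a list; lists differ in their lowest score, so a rank is not compared between days. The median Hox peak was at percentile 73.3 and 71.1 of the day 0 lists and 72.8 of the day 3 list. Of day 3 peaks at or above the median score 99.3% over the genome were in day 0 replicate 2, and so were all 20 Hox peaks of that rank. Below the median score the share was 74.1% over the genome and 7 of 7 in the Hox spans.

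In the other direction, 27 of 36 Hox peaks of day 0 replicate 2 were also found at day 3 (75.0%, 57.8 to 87.9), beside 46.1% of that list. The 22 Hox peaks of day 0 replicate 1 were all in replicate 2 (100%, 84.6 to 100; list 73%), and 20 of them were at day 3 (90.9%, 70.8 to 98.9; list 62.9%). Replicate 2 peaks found in replicate 1 were 21 of 36 (58.3%, 40.8 to 74.5), against 42.5%. The day 0 replicates thus differed from each other by more sites than the day 3 library differed from replicate 2, and with 1 library at day 3 there was no test of a day difference. Of the 7 sites in 1 library, all were in day 0 replicate 2, the longest list, at score percentiles from 2.80 to 59.2. Sites of that library alone made up 18.9% of the Hox sites and 38.9% of those of the genome. At both day 0 libraries and not at day 3 there were 2 of 37 Hox sites, beside 4894 of 93527 over the genome. The 2 were HoxC-2 at chr15:102772949-102774267 and HoxD-6 at chr2:74531211-74533460. The first was low in both lists, at percentiles 22.1 and 11.6. The second stood at 42.9 and 69.5.

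In HoxA, 11 sites were found and 4 were in all 3 libraries; sites are numbered from the low-coordinate end. The sites of HoxA ranked highest of the 4 clusters at day 3, with a median percentile of 92.7, against 74.2 in HoxB, 70.6 in HoxC and 48.9 in HoxD. HoxA-5 at chr6:52170701-52172967 had scores of 83.9 and 116.3 in the day 0 replicates and 105.4 at day 3. It was at percentiles 98.5, 99.9 and 99.5. HoxA-3 at chr6:52153468-52155810 had scores of 66.5, 96.1 and 72.0. Both sites were in the top 5% of each list. HoxA-8 at chr6:52189333-52191746 had scores of 85.8, 46.2 and 63.0, and was above percentile 90 in each list. HoxA-10 at chr6:52205991-52208232 had scores of 39.3, 41.3 and 52.9. HoxA-4 at chr6:52160587-52162820 was not in day 0 replicate 1, though it was at percentile 97.4 in replicate 2 and 94.4 at day 3. High rank in 2 lists was therefore no guarantee of a listing in the remaining one. The first 35.96 kb of the span, at its low-coordinate end, held no CTCF site, and the 11 sites followed each other at gaps of 0.913 to 11.3 kb.

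In HoxB, each of 11 sites was present at day 3 and in day 0 replicate 2, and 8 were also in replicate 1. HoxB-2 at chr11:96084165-96086460 had scores of 59.3 and 64.5 at day 0 and 45.9 at day 3. HoxB-3 at chr11:96095262-96097632 had scores of 50.5, 30.7 and 51.5. HoxB-4 at chr11:96100651-96102935 had scores of 54.4, 27.0 and 43.0. These neighbours were above percentile 69 in each list. HoxB-9 at chr11:96163447-96165827 had scores of 55.3, 39.3 and 47.9, and HoxB-6 at chr11:96121868-96124132 had scores of 39.5, 60.3 and 42.8. Both were likewise in the upper part of each list, above percentile 73. The other sites of all 3 libraries were HoxB-1, HoxB-5 and HoxB-10. HoxB-1 at chr11:96058749-96061116 had scores of 21.1, 29.5 and 42.02. HoxB-5 at chr11:96116534-96118741 had scores of 29.2, 21.8 and 16.7, the last at percentile 7.32. HoxB-10 at chr11:96171922-96174173 had scores of 18.6, 45.6 and 23.5, at percentiles 11.2, 89.9 and 34.7.

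HoxC had 7 sites, of which 3 were in all 3 libraries and 3 in day 0 replicate 2 alone. HoxC-4 at chr15:102795756-102798104 had scores of 92.4 and 45.8 at day 0 and 41.8 at day 3, at percentiles 99.1, 90.05 and 72.7. HoxC-6 at chr15:102816720-102819151 had scores of 34.9, 39.9 and 40.5. HoxC-7 at chr15:102842939-102846159 had scores of 43.3, 21.0 and 38.7. No HoxC site apart from these was found at day 3, the lowest share of the 4 clusters (42.9%, against 63.6% in HoxA, 87.5% in HoxD and 100% in HoxB). Over the genome 43.4% of the 93527 sites were found at day 3, so the HoxC share was near the background. The shares of the clusters rest on 7 to 11 sites each and were not tested.

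HoxD had 8 sites, 5 of them in all 3 libraries. HoxD-4 at chr2:74523497-74525745 had scores of 51.4 and 23.8 at day 0 and 32.3 at day 3. HoxD-7 at chr2:74539105-74541640 had scores of 32.4, 44.9 and 55.8. HoxD-2 at chr2:74499000-74502838, the widest at 3839 bp, had scores of 30.9, 20.5 and 25.5. HoxD-7 was the highest HoxD site at day 3, at percentile 88.2. HoxD-5 at chr2:74528815-74530818 had scores of 35.1, 12.4 and 18.4. HoxD-1 at chr2:74492443-74495084 lies on the edge of the span: its replicate 1 peak alone reached in, and its other peaks (percentiles 18.5 and 32.4) ended outside. The upper part of the HoxD span, beyond HoxD-8 at chr2:74552301-74555297, held no site in any of the 3 lists.

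**Figure D2:**
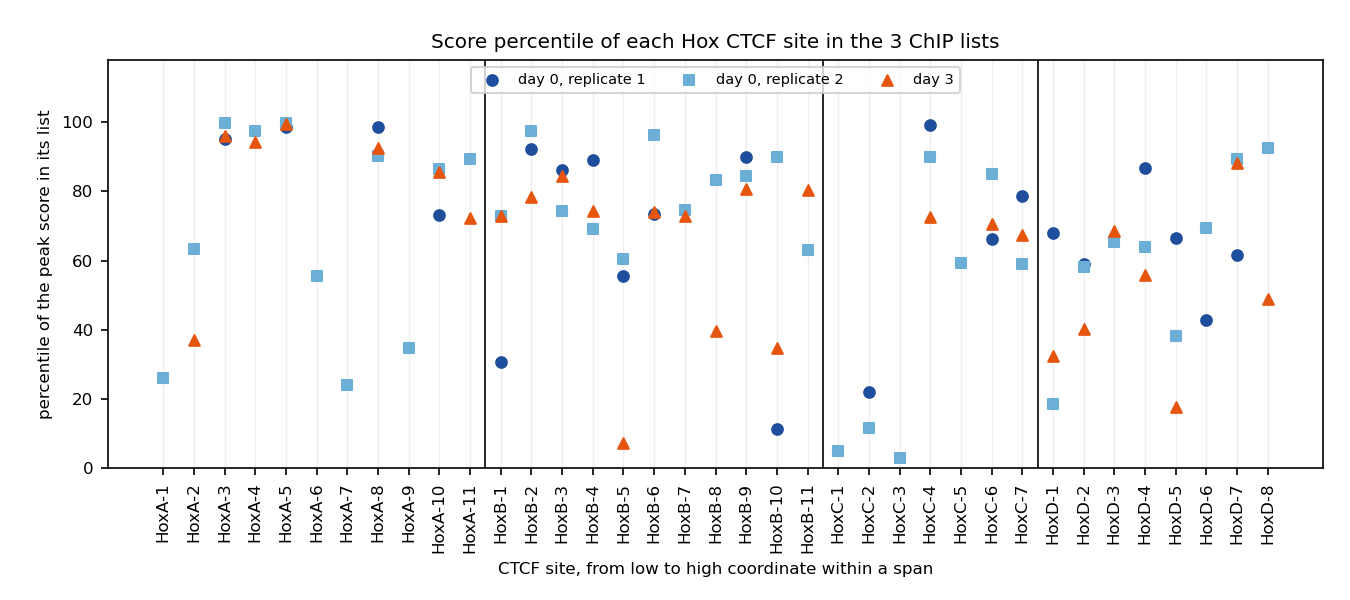
The vertical axis is the percentile of a peak's score within its own ChIP list, and each of the 37 sites has a place along the bottom, with 1 mark per library that listed it. HoxA-3, HoxA-5 and HoxA-8 sit above percentile 90 in all 3 lists, and HoxB-5 is at 7.32 in the day 3 list.

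The deposited allelic lists call some ChIP peaks cas or mus, after the CAST and 129 parents. In HoxA, HoxC and HoxD every allelic peak was mus. Such peaks numbered 3, 9 and 7 in HoxA (day 0 replicate 1, replicate 2, day 3), 3, 3 and 1 in HoxC, and 4, 6 and 6 in HoxD. The chromosomes of these clusters were also mostly mus: cas peaks made up 7.78% to 12.7% of allelic peaks on chromosome 2 and 11.2% to 12.5% on chromosome 6 over the 3 libraries, and at most 0.405% on chromosome 15. Mus calls were thus the majority in these spans and on their chromosomes alike, so no allelic preference of the spans is read from them. Whether both parental copies were present there in the ChIP samples was not tested.

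HoxB was mixed, with 2 cas peaks and 1 mus peak in day 0 replicate 1. Replicate 2 had 1 cas and 7 mus peaks, and day 3 had 2 of each. On chromosome 11 as a whole cas peaks were 6.53%, 9.99% and 7.47% of allelic peaks. At each HoxB site called in 2 or more libraries, day 0 replicate 2 gave the allele opposite to the other calls. Day 0 replicate 1 and day 3 gave the same call at HoxB-3 and at HoxB-10. HoxB-3 was mus, cas and mus in the 3 libraries in that order. HoxB-10 was cas, mus and cas. HoxB-6 was cas and then mus at day 0, and HoxB-7 was mus in day 0 replicate 2 and cas at day 3. No HoxB site called in 2 or more libraries kept 1 allele, so an allelic preference cannot be read there.

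Nuclear RNA was listed on both strands of all 4 clusters. Values are FPKM, fragments scaled to transcript length and to the size of the library. Among rows of at least 300 bp, sense rows had a median of 3.24 FPKM at day 0 (43 rows) and 4.42 at day 3 (35 rows), where the genome had 6.72 and 9.51. Antisense rows had medians of 8.20 (39 rows) and 14.8 (28 rows). Antisense rows were short, with a median length of 612 bp at day 0 against 2517 bp for sense rows. Of the 45 antisense rows of day 0, 43 were newly assembled, meaning that no transcript in them carried a TCONS identifier, the prefix of a merged transcript catalogue. On the sense strand 22 of 44 were. Levels depend on this class of row, which makes up unlike shares of each set. Among rows of at least 300 bp with a TCONS transcript, sense rows had a median of 2.005 FPKM at day 0 and 1.445 at day 3, where the genome had 4.45 and 5.15. Newly assembled sense rows had medians of 6.65 and 8.53, and the genome 7.48 and 11.9. Antisense newly assembled rows had 8.47 and 16.8. These medians were not tested. Counting all lengths, the sense strand had 44 rows at day 0 and 36 at day 3, and the antisense strand 45 and 29.

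Overlapping rows of both days on 1 strand were merged into 92 regions, 44 sense and 48 antisense. A region not listed at a day was set to 0, and a log2 change is that of FPKM + 1, which understates the change of low regions. Of the regions, 78 passed a minimum length of 300 bp and a minimum mean FPKM of 1. With 1 library per day there is no test, and a log2 change of 1 in size was used to count. Among the 78, 18 were higher at day 3 and 29 lower; over the genome 21% of 32592 regions were higher and 36.3% lower. Of the 18, 12 were listed at both days, and of the 29, 8 were, so listing at day 0 alone makes up most of the lower count. The balance turns with the regions that enter: with a minimum mean of 5 FPKM, 14 of 45 were higher (background 26.8%) and 9 lower (background 20%). Unlisted regions were frequent, as 28 of the 92 Hox regions were missing from the day 3 list (30.4%, genome 36.6%) and 7 from the day 0 list (7.61%, genome 9.71%). These Hox shares are close to the background. The lowest values that reached the list also differed by day. Among newly assembled single-transcript rows of 300 to 1000 bp, the fifth percentile of FPKM times length in kb was 1.37 at day 0 and 2.85 at day 3. Its part in the results was not tested. In bulk RNA, fewer cells expressing a gene and less RNA per cell cannot be told apart.

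The sign of a sense change moved with the kind of row that gave each day's value. A region takes its highest row, and where a newly assembled row stood at day 0 and a row with a TCONS transcript at day 3, 0 of 5 Hox sense regions were above a log2 change of 0 (genome 38.6%). In the opposite order 3 of 3 were above 0 (genome 66.6%). Those 8 regions set unlike transcripts side by side. Where a TCONS row gave both values, 1 of 11 was above 0, with a median change of -0.27, whereas 56.2% of 7132 such regions of the genome were above 0, with a median of 0.14. Where newly assembled rows gave both, 5 of 8 were above 0 (genome 69.5%). These counts were not tested.

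Counting every sense region with a TCONS transcript in any row, 20 were listed at both days and passed the minima, 4 were above 0 and the median change was -0.40. Over the genome 54.6% of 11487 such regions were above 0, with a median of 0.12. Past a log2 change of 1 in size, 2 of the 20 were higher (background 20.3%) and 6 lower (background 18.4%). By cluster, 1 of 6 was above 0 in HoxA, 0 of 7 in HoxB, 3 of 4 in HoxC and 0 of 3 in HoxD. Of the 3 in HoxC, 2 set a TCONS row at day 0 against a newly assembled row at day 3. Rows with the same limits at both days numbered 10 among those that passed, 9 sense and 1 antisense, and some of them pool transcripts. Of the 10, 1 was higher (background 14.8%) and 3 lower (background 14%). Those on the sense strand with a single transcript at both days numbered 7: 6 were below 0, with a median of -0.23 against 0.12 for 1428 rows of the genome. None of the 7 was in HoxA.

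In HoxA the sense region at chr6:52181196-52184947 had 11.2 FPKM at day 0 and 4.67 at day 3. The region at chr6:52208852-52210898 had 8.91 and 5.48. The region at chr6:52112350-52115412 had 4.35 and 1.65. These 3 values of day 0 come from newly assembled rows of 1140 to 1272 bp and those of day 3 from TCONS rows of 2023 to 3743 bp, so unlike transcripts are compared, and no direction is read. No HoxA sense row had the same limits at both days. The region at chr6:52192107-52196213 was at 2.45 FPKM in a TCONS row and 4.42 in a newly assembled row of day 3. A TCONS row gave both values at chr6:52173099-52180869, which had 1.93 and 1.14. At chr6:52166783-52168710 a region was listed at day 3 alone, at 11.3 FPKM. The highest sense value, 321.2 FPKM at day 0 in the region chr6:52118463-52163066, came from a row that pools 2 transcripts, and the day 3 row of that region, with 10.5 FPKM, pools 4. Neither value is read as an RNA level; without the region 2 of 19 sense regions were higher and 5 lower, with a median change of -0.35.

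In HoxB the highest sense region, chr11:96132227-96137909, had 14.4 FPKM at day 0 and 8.53 at day 3. These values come from newly assembled rows of 365 and 1167 bp, and its TCONS row of day 0, of 5139 bp, had 1.94 FPKM. The short region chr11:96109947-96110503, in the part of the span that precedes most of the sense rows, had 13.1 and 10.7. The region chr11:96160269-96162883 had 8.32 and 1.85. The last of these differed by -1.71 in log2, and so did chr11:96112419-96126182, at 4.79 and 0.77 FPKM. Pooled rows enter both: chr11:96160269-96162883 has 2 transcripts at day 0 and 1 at day 3, and chr11:96112419-96126182 has 3 at each day. Neither is read as the change of a single RNA. The other regions of the highest 5 were listed at day 0 alone: chr11:96194007-96194729 at 7.88 FPKM and chr11:96127812-96128395 at 7.59. No HoxB sense region was past a log2 change of 1 upward (background 21%), and 5 of 11 were past it downward (background 36.3%). Among the 8 listed at both days, 2 were past it downward (background 12.9%), and the rest of the 5 were listed at day 0 alone.

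In HoxC the sense region chr15:102806788-102812795 had 8.62 FPKM at day 0 and 13.99 at day 3. The region chr15:102765125-102765758 had 6.65 and 12.1, and chr15:102751485-102759245 had 4.79 and 7.26. The region chr15:102767188-102769040 had 2.07 and 6. The last, a single TCONS row of the same limits at both days, was higher at day 3 by 1.19 in log2. A region at chr15:102784786-102788139 had 1.61 and 5.76 FPKM, a log2 change of 1.37. That region and chr15:102751485-102759245 set a TCONS row of day 0 against a newly assembled row. In contrast chr15:102820715-102821675 was listed at day 0 alone, at 6.02 FPKM. The last sense region of the span, chr15:102864826-102867274, was at 1.82 and 1.22.

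In HoxD the sense region chr2:74600565-74601846 had 13.7 FPKM at day 0 and 20.8 at day 3. The region chr2:74519950-74521343 had 13.9 and 13.6, and chr2:74590741-74591801 had 9.27 and 5.26. The region chr2:74535737-74538265 had 8.54 and 7.47. These changes were all under 1 in log2. A 327 bp region, chr2:74495923-74496249, was listed at day 3 alone, at 20.7 FPKM. Past 1 in log2 were chr2:74542616-74545990, higher at day 3 (2.22 and 6.77 FPKM), and chr2:74506367-74509656, lower (6.33 and 2.45).

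Antisense regions listed at both days were mostly higher at day 3. Of 24 that passed the minima, 20 were above 0, with a median log2 change of 0.48; 9 were higher by 1 (background 21.6%) and 2 lower (background 12.9%). On the sense strand 9 of 27 were above 0, with a median of -0.23, and over the genome 61.5% of 21254 were. Regions made of newly assembled rows alone were the greater part of the antisense set. Of 20 such antisense regions listed at both days, 16 were above 0 (80.0%), where the genome had 69.6% of 9767. The median was 0.48 in the Hox spans and 0.41 over the genome. The antisense values are thus near those of newly assembled regions elsewhere, which share the higher listing floor of day 3 given above. The 4 antisense regions with a TCONS transcript were above 0 too, and so were 5 of 7 newly assembled regions on the sense strand.

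Antisense regions with high values were present in each cluster. In HoxB the region chr11:96145543-96146204 had 10.6 FPKM at day 0 and 32.8 at day 3. The region chr11:96132774-96133432 had 10.8 and 17.3, and chr11:96133533-96134243 had 5.92 and 16.4. The region chr11:96164983-96165519 had 5.34 and 15.5. All 4 were higher at day 3, whereas chr11:96160472-96161082 had 15.4 and 13.2. In HoxA the region chr6:52106901-52111615 had 3.49 FPKM at day 3 in a row of 4715 bp. Its day 0 value, 31.7, comes from a row of 223 bp, and its other day 0 row, of 670 bp, had 4.47 FPKM, so the change rests on which row is taken. The HoxA region chr6:52183581-52184948 had 12.2 and 26.4, and chr6:52140859-52141346 had 12.8 and 22.4. The first of these faces the sense region chr6:52181196-52184947. At day 3 alone HoxA had chr6:52114277-52114620 at 21.2 FPKM, and at day 0 alone chr6:52153735-52154820 at 16.8.

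In HoxC the antisense region chr15:102812150-102812871 had 22.3 FPKM at day 0 and 30.1 at day 3. The region chr15:102751633-102752051 had 18.9 and 19.0, and chr15:102820504-102821261 had 8.47 and 18.02. The 18.9 and the 18.02 come from rows of 280 and 278 bp. Listed once were chr15:102765345-102765715 at 19.0 FPKM at day 3, and chr15:102844507-102844905 at 15.0 at day 0. HoxC had the most antisense regions listed at day 0 alone, 9 of 15. In HoxD the region chr2:74519798-74521384 had 11.2 and 25.9, and chr2:74549844-74550643 had 9.73 and 21.9. The region chr2:74586479-74601966 had 18.99 and 6.59, and chr2:74535546-74536956 had 15.3 and 17.1. The 18.99 comes from a row of 426 bp and the 6.59 from a row of 15359 bp that pools 2 transcripts, so no direction is read there. At chr2:74565343-74565761 a region was listed at day 3 alone, at 23.5 FPKM. The HoxD antisense region with the highest log2 change among those listed at both days, chr2:74491049-74497614 (2.27 and 8.91), crosses the edge of the span, and its day 0 row lies outside.

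**Figure D3:**
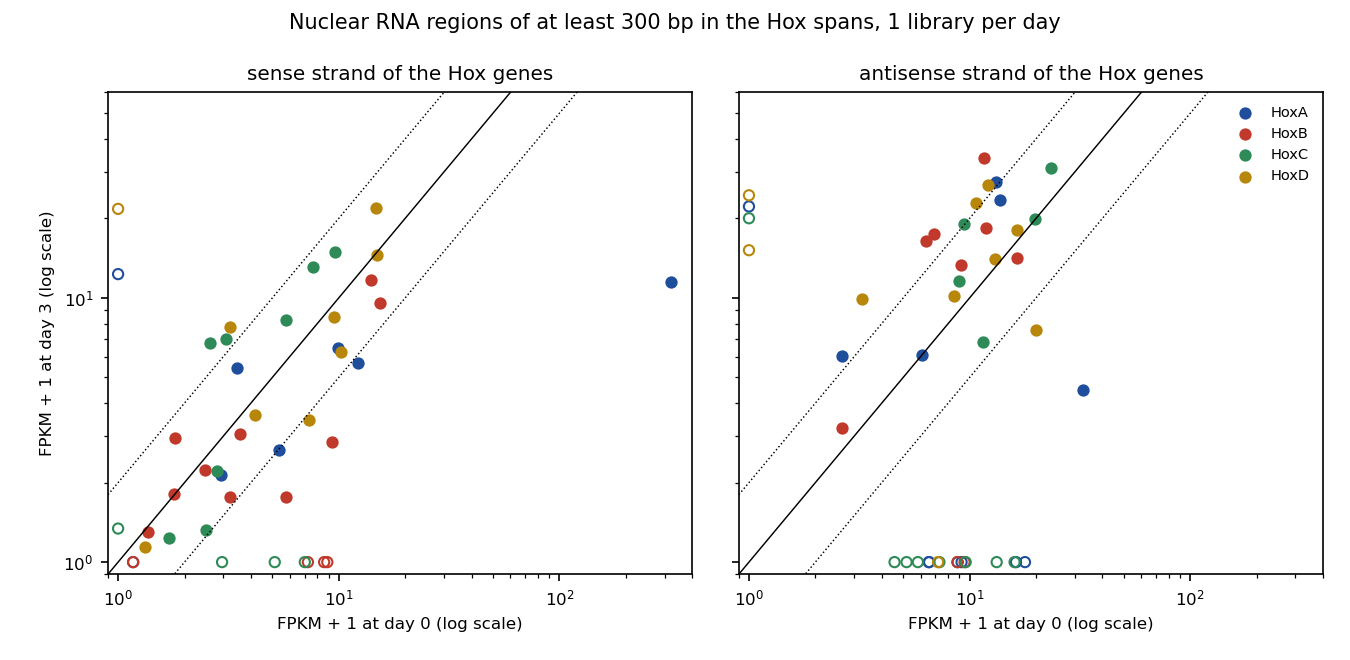
Each point is a region of at least 300 bp, with FPKM + 1 at day 0 along the bottom and at day 3 up the side, both on log scales, for sense (left) and antisense (right) strands. Filled points were listed at both days and open points at 1 day; the solid line is equality and the dotted lines a log2 change of 1 in size. Among filled points that passed the minima, 9 of 27 sense and 20 of 24 antisense regions lie above the line.

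The start of an RNA row fell within a CTCF site in some members. Of Hox rows of at least 300 bp, 13 of 82 at day 0 began within a CTCF site (15.9%, genome 21.2%) and 4 of 63 at day 3 (6.35%, genome 14.8%). By cluster the day 0 counts were 4 of 20 in HoxA (20%), 3 of 24 in HoxB (12.5%), 6 of 22 in HoxC (27.3%) and 0 of 16 in HoxD. At day 3 they were 0 of 13, 2 of 17, 2 of 14 and 0 of 19. The clusters thus lay on both sides of the genome share at day 0, and none of this was tested.

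CLIP peaks were few in the Hox spans, lay nearly all on the sense strand, and were fewer at day 3. The day 0 replicates had 16 and 21 peaks, and those of day 3 had 2 and 7. Per 100000 peaks of a library this was 14.03 and 9.85 at day 0 and 1.88 and 4.22 at day 3. Both day 3 libraries were below both day 0 libraries. On the sense strand there were 44 of 46 peaks (95.7%, exact Clopper-Pearson 95% interval 85.2 to 99.5). No genome share can be set beside this. Antisense RNA had the higher median FPKM, in shorter and mostly newly assembled rows. Sense regions of at least 300 bp covered 222.3 kb in total and antisense regions 69.2 kb. Sense regions were also longer, at a median of 2778 bp against 686.5 bp among regions of at least 300 bp, and 12 of 43 held a same-strand peak. Of 44 antisense regions 1 did, with its peak outside the span; over the genome 42.9% of regions did. The part of length in this was not tested.

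Peak bases on the sense strand, per Mb of all peak bases of a library, were 152.5 and 93.2 at day 0 and 25.0 and 53.5 at day 3. The difference of mean log2 (value + 1) was -1.68, and an exact two-sided permutation test over the 4 libraries gave p = 0.333, the smallest that 2 against 2 allow. HoxB had 72.6 and 57.5 at day 0 and 25.0 and 31.6 at day 3 (-1.17). HoxC had 51.0 and 30.4, then 0 and 18.4 (-3.20). HoxA had 14.03 and 5.42, from 1 peak each, and none at day 3 (-3.30, a size that the added 1 sets where a day is at 0). These 3 clusters did not overlap between days, with the same exact permutation p of 0.333 each. As background, 18.7% of 16076 windows of 100 kb by strand had both day 3 libraries below both day 0 libraries, and 17.5% had both above. HoxD had 14.8 and 0 at day 0 and 0 and 3.53 at day 3, so its groups overlapped (exact permutation p = 1.0). For HoxC the difference was -1.06 without day 3 replicate 1, which had no HoxC peak, and -5.34 without day 3 replicate 2. The HoxD difference turned to 1.09 without day 0 replicate 1 and to 0.19 without day 3 replicate 1.

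**Figure D4:**
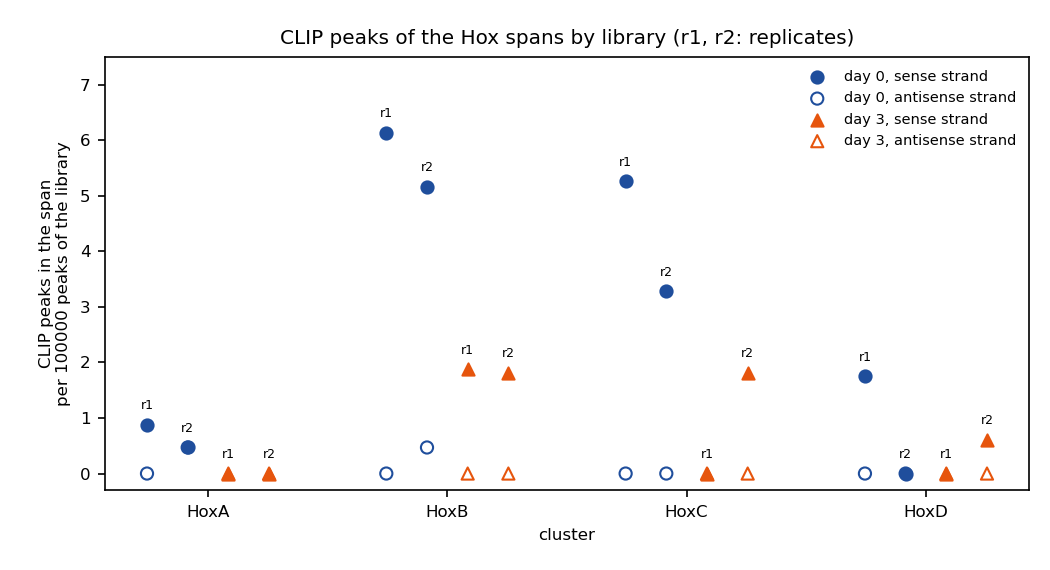
The vertical axis is the number of CLIP peaks in a span per 100000 peaks of the library, with 1 mark per library (r1 and r2 are replicates), day 0 as circles and day 3 as triangles; open marks are the antisense strand. HoxB sense peaks were 6.14 and 5.16 at day 0 and 1.88 and 1.81 at day 3, and HoxD marks of the days overlap.

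Few CLIP peaks recurred at the same place. The 46 peaks formed 43 loci, of which 41 were in 1 library, 1 in 2 and 1 in 3. The same shares over the genome are not given here, so no trait of the Hox spans is read from this count. The locus in 3 libraries was chr11:96109996-96110076 of HoxB, plus strand, in both day 0 libraries and day 3 replicate 1. It lies in the 557 bp sense region with 13.1 and 10.7 FPKM given above. Its scores were at percentiles 86.5 and 99.8 of the day 0 lists and 96.0 of that day 3 list. The locus in 2 libraries was chr15:102765865-102765945 of HoxC, in both day 0 libraries, at percentiles 72.3 and 45.7. It begins just past the end of the sense RNA region chr15:102765125-102765758.

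The other day 0 peaks of HoxB lay in different parts of the cluster in the 2 replicates. The sense region chr11:96112419-96126182 held 9 peaks of day 0 replicate 2 and 2 of day 3 replicate 2, and none of either replicate 1. Replicate 2 lists go down to lower scores, 221 and 212 at days 0 and 3 against 409 and 406 in replicate 1. Replicate 1 of day 0 instead had 6 other HoxB peaks, among them chr11:96131796-96131873 (percentile 98.5), chr11:96135330-96135373, chr11:96137872-96137921, chr11:96146447-96146484 and chr11:96178500-96178521. The replicates thus shared the cluster and the strand, not the positions, apart from the loci named above.

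Over all transcribed regions limma called no CLIP difference between days. Of 12325 regions with peaks in at least 2 libraries 0 had a Benjamini-Hochberg adjusted p under 0.05 (background 0%), and 899 had an unadjusted p under 0.05 (7.29%). Of these regions 4 lie in the Hox spans, none of them among the 899. The HoxA region chr6:52118463-52163066 had 14.03 and 5.42 peak bases per Mb at day 0 and 0 and 0 at day 3, a log2 difference of -3.30 ± 1.40 (SE; limma adjusted p = 0.662). The HoxB region chr11:96109947-96110503 had 15.7 and 9.64 at day 0 and 14.6 and 0 at day 3, a difference of -1.75 ± 1.81 (limma adjusted p = 0.874). The groups overlapped there. The HoxB region chr11:96112419-96126182 had 0 and 43.4, then 0 and 24.98 (-0.39 ± 2.47). The HoxD region chr2:74549864-74586331 had 4.27 and 0, then 0 and 3.53 (-0.11 ± 1.52). Both of the last had a limma adjusted p of 0.999. All 4 estimates were below 0, with standard errors of 1.40 or more; without scaling 3 of the 4 were below 0.

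CLIP peaks of day 0 fell mostly outside the listed RNA in HoxC and mostly inside it in HoxB. At day 0, 18 of 37 lay in a same-strand RNA row of that day (48.6%, exact 95% interval 31.9 to 65.6), whereas 84.1% of all day 0 CLIP peaks did. At day 3 the count was 7 of 9 (77.8%, 39.99 to 97.2), against 83.9%. The day 0 interval lies below the genome share, but it takes peaks as independent. Of the 18 peaks inside, 9 lay in 1 HoxB region, chr11:96112419-96126182, in day 0 replicate 2. The difference from the genome was not tested. The clusters differed: most day 0 peaks of HoxB and those of HoxD were inside a row of the day, and those of HoxA were outside. In HoxC 1 of 13 day 0 peaks was inside a row of its day, at chr15:102754664-102754678. Most of the other HoxC peaks of day 0 stood between chr15:102765865-102765945 and chr15:102784194-102784242.

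Over CTCF ChIP peaks of the same day lay 7 of 37 day 0 CLIP peaks (18.9%, 7.96 to 35.2), with 13.9% over the genome. At day 3 it was 1 of 9 (11.1%, 0.281 to 48.2), with 5.02%. Both genome shares fall inside the intervals. The 8 peaks were at 3 sites: 3 peaks at HoxB-5, 3 at HoxB-6 and 2 at HoxC-3. HoxB-5 had 2 peaks of day 0 replicate 2 and the day 3 replicate 2 peak at chr11:96117978-96118073, none overlapping another. The 3 peaks at HoxB-6 were all from day 0 replicate 2. HoxB-5 and HoxB-6 both lie within the sense RNA region chr11:96112419-96126182, and HoxC-3, a site of day 0 replicate 2 alone, was met by 2 peaks of CLIP day 0 replicate 1. No site had overlapping CLIP peaks from 2 libraries. The allelic CLIP list used here, plus strand of day 0 replicate 1, called 2 Hox peaks, both mus: chr11:96130707-96130754 in HoxB and chr15:102819680-102819697 in HoxC.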

How the data were processed

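The members, spans and comparisons were chosen with earlier results of these data known. The submitters' processing notes name, beside build mm9, Cufflinks 2.1.1, TopHat2 2.0.8, bedtools 2.17.0, cutadapt 1.0, Trim Galore 0.3.3, SAMtools 0.1.18 and Novoalign 3.00.03, without roles; which program called the peaks is not stated there. The authors deposited 1 peak list per library, with their own score for each peak. The RNA rows deposited by the authors carry an unnamed number read as FPKM, the unit of Cufflinks, and a row that pools transcripts has 1 such number. Chromosomes 1 to 19 and X were used. Groups came from the sample titles. Peaks shared a site at an overlap of at least 1 bp. The FPKM of a region was that of its highest row. Day differences of CLIP were tested with limma 3.58.1 (R 4.3.3) on log2 of the scaled same-strand peak bases plus 1, with a mean-variance trend, over regions with peaks in at least 2 libraries, and with an exact permutation test per cluster; p-values measure the spread between these libraries, which may be technical. SciPy 1.17.1, matplotlib 3.10.9 and pandas 2.3.3 ran in Python 3.11.15. The limma step was tested on simulated data, with its pass mark set at a spread below the standard errors of the Hox regions. That run does not show which differences could be called at their spread. Regions named were every CTCF site in all 3 libraries, up to 5 regions per strand and cluster with the highest FPKM, and regions with CLIP peaks in at least 2 libraries. Other sites, peaks and regions named, and the splits by TCONS identifier and by kind of row, by listing at both days and by score rank, were chosen after values were seen. Alternatives covered pseudocounts, minima, scaling, overlap, the replicate block and leaving out each library.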

Additional observations from a re-analysis of the deposited data

How the results depend on the processing

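The limits lie in few members and 1 RNA library per day. Leaving out a library moved the limma count over all regions to between 0 and 377, with the lone sample of a day assumed to vary like the other day's; the Hox count stayed at 0 in every setting run, among 2 to 13 regions tested. Replicates of the 2 days share a number and no stated source: deviations of same-numbered libraries had a correlation of 0.0178 over 12325 regions, and the replicate block gave 0 calls with 1252 regions at an unadjusted p under 0.05. The block cannot change the differences per cluster, because each day has 1 library of each number. They stayed at -3.30 (HoxA), -1.17 (HoxB), -3.20 (HoxC), -0.90 (HoxD) and -1.68 (all 4). With 1 prior spread for all regions, chosen after seeing the data, limma also called 0. The balance of Hox RNA regions turned with the set: 14 were higher and 9 lower at day 3 of 45 with a mean FPKM of at least 5, and 12 higher and 8 lower of the 51 listed at both days, in place of 18 higher and 29 lower of 78. Day 3 Hox peaks in a day 0 library were 70.4% without replicate 2, the longer list, and 100% otherwise. Leaving out each library gave -3.91 to -2.68 for HoxA, -1.34 to -1.005 for HoxB, -5.34 to -1.06 for HoxC, -2.90 to 1.09 for HoxD (reversed at 1.09 and 0.19) and -2.21 to -1.14 for all 4. Sites in every library used were 20 to 27. Scaling by number of peaks or not at all kept the direction of each difference per cluster; without scaling, 3 of the 4 Hox regions tested with limma were below 0 in place of 4. Depth is unknown for every list.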
